A study of Mus musculus with 8 samples.

Results

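The Cyp3a genes are the members of mouse cytochrome P450 family 3, subfamily a. Here 8 of them were followed through liver RNA-seq, namely Cyp3a11, Cyp3a13, Cyp3a16, Cyp3a25, Cyp3a41a, Cyp3a41b, Cyp3a44 and Cyp3a59. They were found by symbol among the 33212 genes of the count table, and the family was chosen because the Cyp3a16 level was higher in knockout livers. For this reason the difference between genotypes is described for each member and not tested. A ninth gene of the family in the table, Cyp3a57, was not among the chosen members and is given beside them.

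The libraries came from livers of male C57BL/6 mice that ate, over 8 weeks, a diet without methionine and choline (MCD), 4 from Nnmt KO mice and 4 from control mice. Nnmt KO mice carried Alb-Cre and loxP-flanked Nnmt alleles (Alb-Cre::Nnmt flox/flox), and control mice carried the loxP-flanked alleles without Cre (Nnmt flox/flox; the labels call them WT). The study describes this knockout as specific to hepatocytes, so other liver cells may keep Nnmt, which encodes nicotinamide N-methyltransferase. Cre itself also differs between the groups. Both groups were on the MCD diet, and no mice on another diet are part of the comparison. No age is given for these mice in the sources used here. The columns of counts name the genotype but no mouse, and libraries are given the letters a to d in each genotype. Total counts were between 75020072 and 87934362 in Nnmt KO and between 79043675 and 87056991 in control libraries. Levels are counts relative to the library total (CPM), corrected by edgeR's TMM factors. Before this correction 3 counts stand for at most 0.04 CPM.

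Cytochrome P450 enzymes of this subfamily are heme proteins of the endoplasmic reticulum that oxidize drugs, steroids and bile acids. In mouse liver Cyp3a11 is the main form in both sexes. Cyp3a41 and Cyp3a44 are known as forms that predominate in females and are held low in males by the pulsed secretion of growth hormone, while Cyp3a16 is known from the fetal and newborn liver. Cyp3a13 and Cyp3a25 are also made in the intestine, and the pregnane X receptor (PXR, gene Nr1i2) and the constitutive androstane receptor (CAR, gene Nr1i3) induce genes of the family in response to foreign compounds.

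Nnmt, the targeted gene, was at 31.8, 44.8, 68.9 and 83.0 CPM in Nnmt KO libraries a, b, c and d, and at 112, 224, 134 and 84.9 CPM in control libraries a to d. Every Nnmt KO library was below every control library, though library d of each genotype nearly met. The log2 fold change was -1.28 (SE 0.33) and edgeR's test gave an adjusted p of 0.123, while DESeq2's test gave 0.00458. The direction was that of the labels, and Nnmt RNA remained in the knockout livers. The source of this RNA was not tested.

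Along chromosome 5 (GRCm38, GENCODE M21), Cyp3a57, Cyp3a16, Cyp3a41b, Cyp3a41a, Cyp3a44, Cyp3a11, Cyp3a25 and Cyp3a59 lie in this order in 768 kb between 145345279 and 146113287. No other annotated gene of the count table lies inside this stretch. Cyp3a13, from 137892932 to 137921619, lies 7.42 Mb before it. Cyp3a57 and Cyp3a59 are on the plus strand and the other members on the minus strand.

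Cyp3a16, Cyp3a41a and Cyp3a41b, which are neighbours in this order, were several fold higher in Nnmt KO livers, and the other 5 members were not. The stretch before the transcription start was therefore laid side by side for Cyp3a16, Cyp3a41a and the next gene, Cyp3a44. The sequences are 250 bases 5′ of the start from RefSeq (GRCm38.p6), all on the minus strand, at chr5:145469724-145469973, chr5:145720137-145720386 and chr5:145805875-145806124. Capitals mark TGTTTAC (a FOXA consensus), CAAAGTCCA (an HNF4A consensus) and ATCAAT (a Onecut consensus).
Cyp3a16: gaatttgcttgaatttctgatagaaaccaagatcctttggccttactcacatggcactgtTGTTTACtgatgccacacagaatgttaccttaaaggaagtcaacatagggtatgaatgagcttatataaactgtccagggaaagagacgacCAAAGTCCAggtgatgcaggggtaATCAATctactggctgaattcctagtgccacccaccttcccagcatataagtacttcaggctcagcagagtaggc
Cyp3a41a: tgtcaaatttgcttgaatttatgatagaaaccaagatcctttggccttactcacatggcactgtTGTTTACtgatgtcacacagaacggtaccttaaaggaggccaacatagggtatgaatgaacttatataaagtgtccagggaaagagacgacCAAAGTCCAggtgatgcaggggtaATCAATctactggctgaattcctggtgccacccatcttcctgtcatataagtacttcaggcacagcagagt
Cyp3a44: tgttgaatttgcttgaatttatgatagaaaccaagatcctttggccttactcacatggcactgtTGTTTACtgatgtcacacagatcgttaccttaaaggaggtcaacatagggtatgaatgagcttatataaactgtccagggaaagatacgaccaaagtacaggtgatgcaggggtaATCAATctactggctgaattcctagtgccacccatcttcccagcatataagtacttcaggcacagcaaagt
Over windows that also hold the 50 bases after the start, Cyp3a41a had 94.6% identity with Cyp3a16 and 94.3% with Cyp3a44, and Cyp3a41b differed from it at 1 aligned base. The windows of Cyp3a16 and Cyp3a44 were 95.9% identical. Whether the bases that differ bear on the levels was not tested. Cyp3a44 lacked the HNF4A letters, as the change C162A, counted from 1 at the 5′ end of the Cyp3a41a window, falls inside the match at bases 156 to 164. Cyp3a11 held both TGTTTAC and CAAAGTCCA but not ATCAAT, while Cyp3a57 held only ATCAAT, and Cyp3a13, Cyp3a25 and Cyp3a59 held none of the 3. TGTTTAC was found in 3.65%, CAAAGTCCA in 0.475% and ATCAAT in 7.54% of 32851 RefSeq promoter windows of this length, on either strand. The motifs were picked after the sequences and values were seen, and a match is a description of letters only. The further motifs searched were the nuclear receptor half-sites AGGTCA (16.3% of windows) and AGTTCA (13.99%), TTCNNNGAA of STAT5 (8.30%) and ATATAA (9.82%), which overlap with none of the capitals, though AGTTCA and ATATAA meet in the Cyp3a41a window. TTCNNNGAA matched in no window of the family, whereas AGGTCA matched in Cyp3a11, Cyp3a25, Cyp3a44, Cyp3a57 and Cyp3a59.

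Cyp3a16 (ENSMUSG00000038656, 145436309 to 145469723) was at 2.78, 5.01, 3.50 and 6.10 CPM in Nnmt KO libraries a to d, from 254, 404, 293 and 437 counts. In control libraries a to d it was at 0.543, 0.700, 0.553 and 0.618 CPM, from 45, 53, 48 and 52 counts. The control livers were thus low and close together, with a coefficient of variation of 12.0%, and every Nnmt KO liver was above all of them. The means were 4.34 ± 1.49 CPM (SD, n = 4) in Nnmt KO and 0.604 ± 0.072 CPM (SD, n = 4) in control mice, a log2 fold change of 2.84 (SE 0.28). Leaving out each library in turn gave 2.64 to 3.01.

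Cyp3a41a (ENSMUSG00000075551, 145694049 to 145720136) was at 122, 269, 288 and 532 CPM in Nnmt KO libraries a to d and at 64.5, 37.1, 80.6 and 43.9 CPM in control libraries a to d. Its log2 fold change was 2.42 (SE 0.39). Cyp3a41b (ENSMUSG00000075552, 145558664 to 145584730) was at 98.0, 209, 219 and 423 CPM in Nnmt KO libraries and at 50.6, 29.9, 65.5 and 34.6 CPM in control libraries, a log2 fold change of 2.39 (SE 0.39). In both genes Nnmt KO library a was nearest to the control livers and Nnmt KO library d stood highest, but the genotypes did not overlap. The sum of both genes in the highest Nnmt KO liver was 4.34 times that in the lowest (955 against 220 CPM).

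Cyp3a44 (ENSMUSG00000054417, 145773983 to 145805874) lies next to Cyp3a41a and did not share this difference. It was at 112, 214, 240 and 347 CPM in Nnmt KO libraries a to d and at 229, 308, 250 and 260 CPM in control libraries a to d. The genotypes overlapped, and the Nnmt KO livers held both the lowest and the highest value. The log2 fold change was -0.19 (SE 0.27) and reached 0.03 without Nnmt KO library a.

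Cyp3a11 (ENSMUSG00000056035, 145854426 to 145879964), the main drug-metabolizing form, was at 1410, 2047, 2369 and 2639 CPM in Nnmt KO libraries a to d. In control libraries a to d it was at 1908, 1921, 1677 and 1634 CPM. The control values lay within the range of the Nnmt KO values, with a log2 fold change of 0.25 (SE 0.19). Cyp3a25 (ENSMUSG00000029630) had 85.0 to 171 CPM in Nnmt KO and 143 to 182 CPM in control livers, a log2 fold change of -0.23 (SE 0.20). For Cyp3a59 (ENSMUSG00000061292) the range was 16.3 to 37.9 CPM in Nnmt KO and 23.0 to 30.3 CPM in control livers, and the log2 fold change was 0.06 (SE 0.22). Cyp3a13 (ENSMUSG00000029727), the member outside the cluster, had 36.8 to 78.1 CPM in Nnmt KO and 49.4 to 85.7 CPM in control livers, a log2 fold change of -0.07 (SE 0.23). Single libraries set the sign of these last fold changes. That of Cyp3a59 ran from -0.09 to 0.26 as each library was left out, and was below 0 without Nnmt KO library c or d or control library c. That of Cyp3a13 ran from -0.25 to 0.15, and was above 0 without Nnmt KO library a or control library b. Cyp3a57 (ENSMUSG00000070419) was low, at 1.31 to 2.65 CPM in Nnmt KO and 0.362 to 1.71 CPM in control livers, and its log2 fold change of 0.89 (SE 0.43) came with overlapping genotypes.

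**Figure D1:**
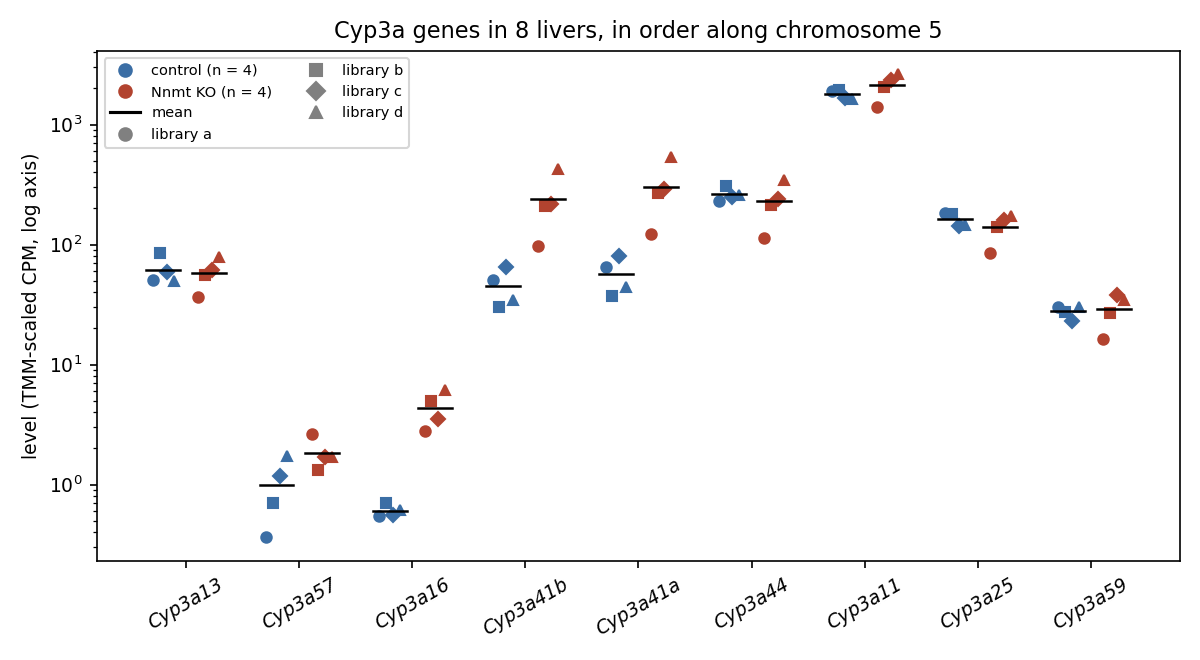
Level (TMM-scaled CPM, log axis) of each Cyp3a gene in 4 control (blue) and 4 Nnmt KO (red) libraries, with the group means as black lines; the marker shape gives the library letter within a genotype, which does not pair mice. Cyp3a16, Cyp3a41a and Cyp3a41b separate the genotypes, whereas Cyp3a11, Cyp3a44 and the others overlap.

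All 8 members passed the filter on low counts, and Cyp3a57 passed too. Of the 8 members, 3 were at least 2-fold higher in Nnmt KO livers and 0 at least 2-fold lower, against 2.44% and 1.01% of the 15291 genes tested. The same 3 had libraries that did not overlap, which was the case in the higher direction for 3.34% and in the lower for 4.81% of the genes tested. Cyp3a41a and Cyp3a41b, both among the 3, hold nearly the same sequence and are hardly separate observations. As the family was also chosen on this contrast, nothing is read from these counts. The other 5 members had log2 fold changes within 0.3 of 0, and the median was 0.15 over the members and 0.02 over all genes tested.

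**Figure D2:**
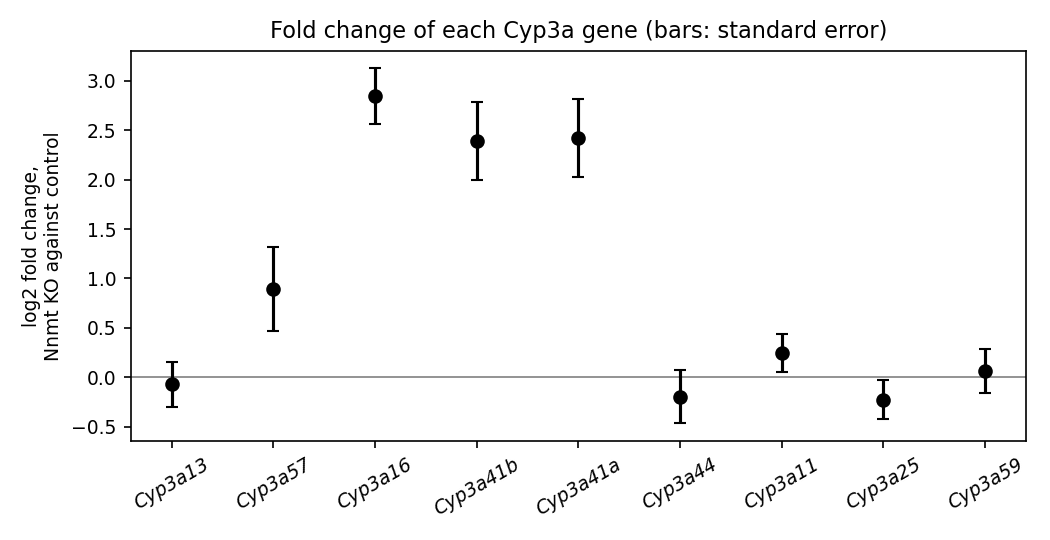
Log2 fold change (Nnmt KO against control, 4 libraries each) of the Cyp3a genes in their order along chromosome 5, with bars for the standard error from edgeR's fit. Cyp3a16, Cyp3a41b and Cyp3a41a lie between 2.39 and 2.84, and the other genes lie near 0 apart from Cyp3a57 at 0.89.

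Levels of different genes were compared per kb of their main coding transcript. In control livers the order was Cyp3a11 at 761 ± 64.4, Cyp3a44 at 133 ± 17.0, Cyp3a25 at 81.4 ± 10.5, Cyp3a41a at 27.5 ± 9.63, Cyp3a41b at 21.9 ± 7.84, Cyp3a13 at 20.7 ± 5.72, Cyp3a59 at 13.9, Cyp3a57 at 0.499 and Cyp3a16 at 0.349 ± 0.042 CPM per kb (mean ± SD, n = 4). Cyp3a44, known as a form that predominates in females, thus held rank 2 in these male control livers, and no female livers are part of the comparison. Neighbours in this order overlapped between Cyp3a41a and Cyp3a41b, between Cyp3a41b and Cyp3a13 and between Cyp3a57 and Cyp3a16, and the others were apart. In Nnmt KO livers Cyp3a11 was again highest, at 903 ± 226 CPM per kb. It was followed by Cyp3a41a at 147 ± 82.5, Cyp3a44 at 116 ± 49.2, Cyp3a41b at 115 ± 65.6 and Cyp3a25 at 69.5 ± 19.2 CPM per kb, among which each neighbour overlapped the next. Cyp3a13 at 19.7 and Cyp3a59 at 14.5 CPM per kb overlapped as well, and Cyp3a16 at 2.51 CPM per kb stood above Cyp3a57 at 0.925. Cyp3a41a thereby held rank 4 in control and rank 2 in Nnmt KO livers, and Cyp3a16 ranks 9 and 8. Although its fold change was the highest of the family, Cyp3a16 made up 0.033% of the family's summed level per kb in control and 0.183% in Nnmt KO livers.

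The share of Cyp3a41a in the summed level went from 2.61% to 9.98% and that of Cyp3a41b from 2.08% to 7.81%. Cyp3a11 held 71.7% in control livers (range 70.3% to 73.3%) and 66.3% in Nnmt KO livers (range 59.3% to 72.3%), so that its shares overlapped. Cyp3a44 held 12.6% and 8.15%, and its share was lower in each Nnmt KO liver than in any control liver, although its own levels overlapped. The summed level of the family was 1061 ± 78.7 CPM per kb in control and 1388 ± 443 CPM per kb in Nnmt KO mice (SD, n = 4), with overlap, as Nnmt KO library a was at 832 and Nnmt KO library d at 1900 CPM per kb.

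The spread between the Nnmt KO livers was shared by the members. Nnmt KO library a had the lowest value of its genotype for 8 of 8 members, and library d the highest for 7. How many of all genes tested were lowest in library a was not counted. Cyp3a57, outside the chosen members, was highest in library a, at 2.65 CPM against 1.31, 1.68 and 1.70 CPM in libraries b, c and d. In library a the summed level of 9 hepatocyte markers, of which albumin (Alb) was the most abundant, was 69285 CPM, while it was 108906, 122575 and 119542 CPM in libraries b, c and d. In control libraries a to d this sum was 113382, 132321, 88194 and 101099 CPM, and none of the 9 markers was at 0 in the libraries. Per 1000 CPM of these markers, Cyp3a11 was at 20.4, 18.8, 19.3 and 22.1 CPM in Nnmt KO libraries a to d, so library a was not the lowest. The Cyp3a41a and Cyp3a41b sum was at 3.18, 4.39, 4.13 and 7.99 CPM on this scale, still lowest in library a. Bulk RNA cannot tell fewer hepatocytes from less RNA per hepatocyte. Without Nnmt KO library a the log2 fold changes were 3.01 for Cyp3a16, 2.68 for Cyp3a41a and 2.65 for Cyp3a41b, so the difference was as large without it.

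Ratios within a library do not depend on its scaling. For each 1000 CPM of Cyp3a11, the Cyp3a41a and Cyp3a41b sum was 156, 234, 214 and 362 CPM in Nnmt KO libraries a to d, against 60.3, 34.9, 87.1 and 48.1 CPM in control libraries a to d. Cyp3a16 was at 1.97, 2.45, 1.48 and 2.31 CPM per 1000 CPM of Cyp3a11 in Nnmt KO and at 0.285, 0.364, 0.330 and 0.379 in control libraries. Both ratios were higher in each Nnmt KO liver than in any control liver. For Cyp3a44 the ratio was 79.7 to 132 in Nnmt KO and 120 to 160 in control libraries, which overlapped, and for Cyp3a25 it was 60.3 to 68.2 in Nnmt KO and 85.2 to 95.6 in control libraries, which did not. Relative to Cyp3a11, Cyp3a25 was therefore lower in the knockout livers, although its own levels overlapped between genotypes. The Cyp3a41 sum was 1.96 to 2.75 times the Cyp3a44 level in Nnmt KO livers and 0.218 to 0.586 times in control livers. These ratios were chosen after the spread between libraries was seen.

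**Figure D3:**
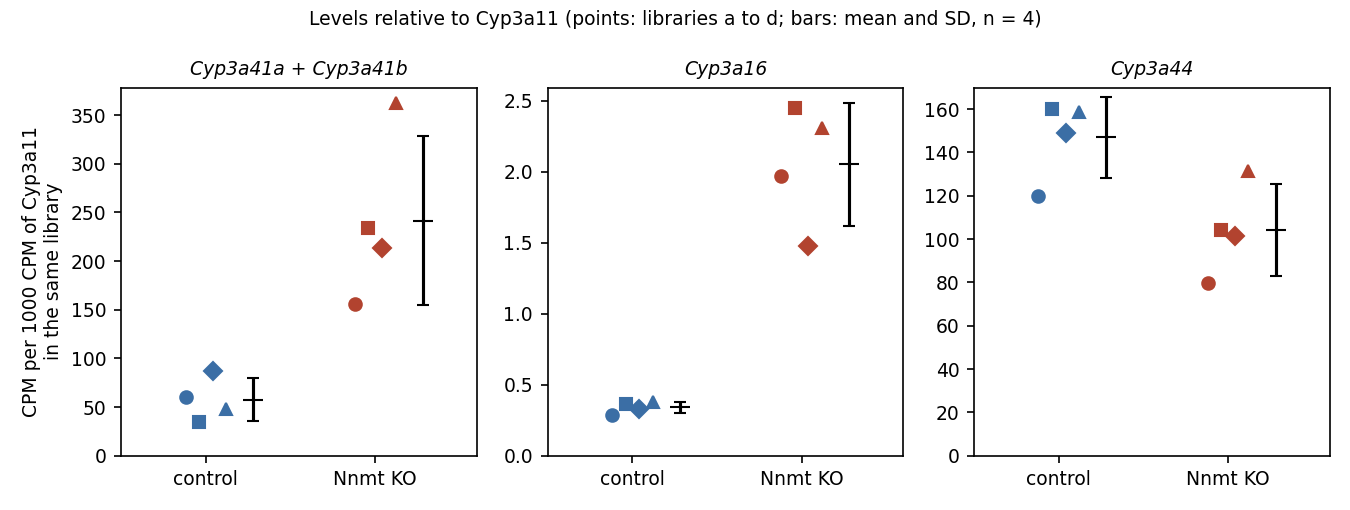
CPM of the Cyp3a41a and Cyp3a41b sum, of Cyp3a16 and of Cyp3a44 per 1000 CPM of Cyp3a11 in the same library, for 4 control and 4 Nnmt KO libraries (points), with mean and SD. The first 2 panels show no overlap between genotypes, with Cyp3a16 at 0.285 to 0.379 in control and 1.48 to 2.45 in Nnmt KO, and the third shows overlap.

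The members resemble each other closely, and how the authors' counting treated reads that fit more than 1 gene is not given in the sources used here. The main coding transcripts in GENCODE were therefore compared. Cyp3a41a and Cyp3a41b encode identical proteins of 504 amino acids, and 82.9% of the 1911 stretches of 150 bases (the read length in the study's methods) in Cyp3a41a occur without change in Cyp3a41b. Reads from these 2 genes can hardly be told apart. The count of Cyp3a41b was 0.760 to 0.812 times that of Cyp3a41a in all 8 libraries, and their levels and fold changes are uncertain one by one. Summed as 1 gene, they had 20147, 38585, 42398 and 68492 counts in Nnmt KO libraries a to d, against 9545, 5075, 12680 and 6607 counts in control libraries a to d. The log2 fold change of the sum was 2.41 (SE 0.39), and 1.98 to 2.67 when each library was left out in turn.

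None of the 1581 stretches of Cyp3a16 occurs in another member. Its protein is 87.7% identical to that of Cyp3a41a, 87.3% to that of Cyp3a11 and 86.5% to that of Cyp3a44, and no member reached 90% identity with it. The longest run of identical bases was 101 with Cyp3a11 and 63 with Cyp3a41a. Cyp3a11 had 128903 to 198373 counts in each library, against 45 to 437 for Cyp3a16. For each count of Cyp3a16 there were 79.3 to 157 counts of the Cyp3a41a and Cyp3a41b sum in Nnmt KO libraries. In control libraries there were 95.8 to 264, with overlap. Whether reads of Cyp3a11, Cyp3a41a or Cyp3a41b were counted for Cyp3a16 was not tested. With Cyp3a16, Cyp3a41a, Cyp3a41b, Cyp3a44 and Cyp3a11 (at least 80% identity) summed as 1 count, the log2 fold change was 0.43, most of that sum being Cyp3a11. Cyp3a25 and Cyp3a59 shared few stretches, with 99.3% of each found in that gene alone. Cyp3a44, Cyp3a11, Cyp3a13 and Cyp3a57 shared none.

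**Figure D4:**
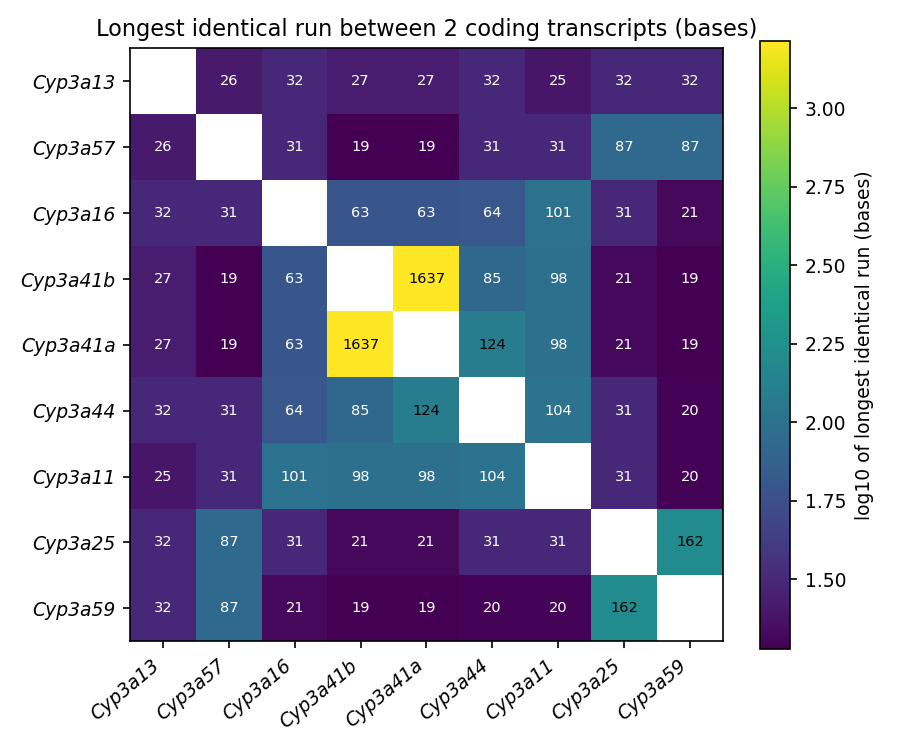
Longest run of identical bases between the main coding transcripts of each pair of Cyp3a genes, in bases (numbers) and as log10 (colour). Only Cyp3a41a with Cyp3a41b, at 1637 bases, and Cyp3a25 with Cyp3a59, at 162 bases, pass the read length of 150 bases.

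Within genotypes (log2 CPM with the mean of each genotype subtracted, 8 libraries), Cyp3a11 went with Cyp3a25 (Pearson r = 0.987), in Nnmt KO and in control livers alike. The relations of Cyp3a41a with Cyp3a16 and with Cyp3a44 were positive among Nnmt KO and negative among control livers, and that of Cyp3a11 with Cyp3a44 and Cyp3a59 was close among Nnmt KO livers only, so no value over both genotypes is given for them. The points share a library and its composition, Nnmt KO library a being low in hepatocyte markers, and these values are descriptions. Among all genes of at least 1 CPM, the 5 most like Cyp3a11 were Cyp2c40, a P450 of another subfamily (r = 0.998), Cyp3a25, Pdhx, Ccdc107 and Ceacam2 (r = 0.983 or more). The 5 most like Cyp3a16 were Gm7030 (r = 0.983), Gm16548, 2010012O05Rik, Sat2 and Cdc26 (r = 0.946), and no Cyp3a gene was among them. For Cyp3a41a, looked at after the values were seen, Cyp3a41b came first (r = 0.999) and Larp1b second (r = 0.994). Reads of Cyp3a41a and Cyp3a41b can hardly be told apart, so nothing is read from that first place.

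No gene beside the cluster was called. Of 44 annotated genes of the table within 1 Mb, 25 were tested, and 0 passed edgeR's test at an adjusted p of 0.05, against 0.32% of all genes tested, and 0 passed in DESeq2's, against 3.56% of the 14395 genes to which DESeq2 gave an adjusted p. An unadjusted p under 0.05 was found for 1 of them, the splicing factor gene Bud31 (log2 fold change -0.26), against 12.6% of all genes tested. The median log2 fold change was -0.03. The most abundant neighbours were the ribosomal protein gene Rpl21 at 0.07, the ATP synthase gene Atp5j2 at -0.03 and Baiap2l1 at 0.38 on the log2 scale, each with overlapping genotypes.

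Nuclear receptors and liver transcription factors known to act on Cyp3a genes were read from a list of 20, which does not hold Cux2 (given with the female-biased genes). Of these 20, 0 passed edgeR's test at an adjusted p of 0.05, against 0.32% of all genes tested, and 4 had an unadjusted p under 0.05, against 12.6%. Libraries did not overlap for 1 in the higher and 3 in the lower direction, against 3.34% and 4.81% of all genes tested. DESeq2 called 2, Cebpa lower and Ppargc1a higher, against 2.06% lower and 1.51% higher over all genes. Without Nnmt KO library a, edgeR called Ppargc1a higher, against 0.465% of genes higher and 0.498% lower in that fit. PXR (Nr1i2) was at 110 ± 19.3 CPM in Nnmt KO and 98.6 ± 24.7 CPM in control mice (SD, n = 4), with a log2 fold change of 0.15 (adjusted p = 0.772 in edgeR's test). CAR (Nr1i3) was at 106 ± 22.4 and 126 ± 33.5 CPM, with -0.24 (adjusted p = 0.663 in edgeR's test). The most abundant regulators were Hnf4a, a nuclear receptor of hepatocytes (log2 fold change 0.18), Rxra, the partner of PXR and CAR (-0.07), and Cebpa. Cebpa, a leucine zipper factor of mature hepatocytes, was at 153 to 187 CPM in Nnmt KO and 227 to 303 CPM in control livers without overlap, with a log2 fold change of -0.63 and an adjusted p of 0.0778 by edgeR. The other 3 with a low unadjusted p were the coactivator gene Ppargc1a (log2 fold change 0.82, adjusted p = 0.0711 in edgeR's test), the corepressor gene Nr0b2 (-0.64, adjusted p = 0.188) and Foxa2 (-0.52, adjusted p = 0.195).

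Of 28 other targets of PXR and CAR, 0 passed in edgeR's test or in DESeq2's, 2 had an unadjusted p under 0.05 (Cyp2c54 and Slco1a4, both higher, against 5.45% of all genes tested), and the median log2 fold change was 0.07. Without Nnmt KO library a, 2 of the 28 were called higher by edgeR (Cyp2c37 and Slco1a4), against 0.465% of all genes in that fit. The CAR target Cyp2b10 was near 1 CPM in both groups, at 1.11 ± 0.450 in Nnmt KO and 0.702 ± 0.141 CPM in control mice. The most abundant targets were Gstm1 (log2 fold change 0.32) and Ugt1a1 (-0.32), which encode conjugating enzymes, and Aldh1a1 (-0.03). Among 16 partners of P450 enzymes and genes of heme synthesis and breakdown, 0 passed in edgeR's test. The single gene with an unadjusted p under 0.05, against 12.6% of all genes tested, was Uros, of heme synthesis (log2 fold change -0.44). DESeq2 called it lower, against 2.06% of all genes. Por, which encodes the reductase that passes electrons to P450 enzymes, had a log2 fold change of 0.28, Alas1, the first enzyme of heme synthesis, 0.20 and Pgrmc1 0.05.

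Growth hormone and sex are known to bear on several members, and genes of these programmes were laid beside them. The lists were written with earlier results of these data known, among them Sult2a1 and Igf2, so their counts are not independent evidence of a direction. Of 24 tested female-biased genes outside the family, 4 rose and 0 fell by edgeR at an adjusted p of 0.05, against 0.183% and 0.137% of all genes tested. The median log2 fold change was 0.61, with 22 of 24 above 0. Sult2a1, a sulfotransferase of steroids and bile acids, was at 2.23, 3.77, 3.24 and 4.24 CPM in Nnmt KO libraries a to d and at 0.241, 0.132, 0.530 and 0.381 CPM in control libraries, and rose by 3.38 on the log2 scale (SE 0.39, adjusted p = 0.00958 in edgeR's test). Sult2a2, a near relative with which reads could be shared, was at 10.4, 31.0, 27.1 and 29.7 CPM and at 2.15, 0.660, 5.54 and 3.67 CPM in the same order. It rose by 3.02 (SE 0.53, adjusted p = 0.0496 in edgeR's test). Cux2, a transcription factor of the female liver, was at 2.92, 6.54, 9.55 and 5.20 CPM in Nnmt KO and at 1.36, 1.91, 0.749 and 0.904 CPM in control libraries, and rose by 2.30 (SE 0.38, adjusted p = 0.0456 in edgeR's test). Prom1, a membrane protein that also marks bile duct progenitors, was at 17.1, 7.19, 12.9 and 11.3 CPM and at 3.26, 1.85, 3.85 and 3.57 CPM, and rose by 1.95 (SE 0.28, adjusted p = 0.0381 in edgeR's test). In all 4 genes every Nnmt KO library was above every control library. Of the 24, 6 had no overlap in the higher and 0 in the lower direction, against 3.34% and 4.81% of all genes tested. A1bg had the highest fold change of the list, 4.60, but Nnmt KO library a at 1.70 CPM lay below control library b at 2.90 CPM, and its adjusted p was 0.0711 in edgeR's test.

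The most abundant female-biased genes were the P450 genes Cyp4a14 (log2 fold change 0.56), Cyp2a4 (0.02) and Cyp2a5 (0.11), none of which passed the test. The count of called female-biased genes ran from 0 to 7 as single libraries were left out. It was 7 without Nnmt KO library a, all higher, against 0.465% of all genes called higher in that fit. It was 0 without control library a, and 1 or 2 without any of the other 6 libraries. DESeq2 called 7 higher, against 1.51% of all genes. Sult2a1 kept its call except without control library a, where the adjusted p was 0.0561. Sult2a2, Cux2 and Prom1 each lost theirs in most of these fits. Sult2a2 also lost its call with DESeq2's size factors (adjusted p = 0.0512 in edgeR's test), library sizes only (0.0792) and no filter on low counts (0.0968). In the same test Prom1 lost its call with library sizes only (0.0693) and without the filter (0.0764), and Cux2 without the filter (0.0905).

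Of 25 male-biased genes tested, 1 rose and 0 fell by edgeR at an adjusted p of 0.05, against 0.183% and 0.137% of all genes tested. DESeq2, and edgeR without Nnmt KO library a, each called 2 higher (Cyp4a12b and Selenbp2) and 1 lower (Mup1), against 1.51% and 2.06% of all genes by DESeq2 and 0.465% and 0.498% in the fit without that library. The gene called by edgeR was Cyp4a12b, a fatty acid hydroxylase, at 23.9 to 39.0 CPM in Nnmt KO and 9.09 to 18.9 CPM in control livers, with a rise of 1.24 (SE 0.21, adjusted p = 0.0496 in edgeR's test, and 0.159 without Nnmt KO library c), and it lost its call in 6 of the 8 fits that left out a library. The most abundant male-biased genes were Gstp1 (log2 fold change 0.13), Cyp2d9 (-0.09) and Cyp2f2 (-0.41). Libraries did not overlap for 3 genes of the list in the higher and 1 in the lower direction, against 3.34% and 4.81% of all genes tested. Besides Cyp4a12b these were Selenbp2, at 18.4 to 30.3 CPM in Nnmt KO and 9.47 to 16.2 CPM in control livers (log2 fold change 0.95, adjusted p = 0.0711 in edgeR's test), Cspg5, at 0.179 to 0.252 CPM in Nnmt KO and 0 to 0.161 CPM in control livers (adjusted p = 0.444), and Mup1. The urinary protein gene Mup1 was at 8.55 to 38.3 CPM in Nnmt KO and 58.4 to 80.3 CPM in control livers, with a log2 fold change of -1.43 and an adjusted p of 0.113 by edgeR. Cyp4a12a had a log2 fold change of 1.89 with overlapping genotypes (adjusted p = 0.193 in edgeR's test), and the median of the list was 0.07. Among 17 genes of growth hormone signalling, edgeR called Cux2 alone and DESeq2 called Cux2 and Cish, both higher, against 0.183% of all genes higher by edgeR and 1.51% by DESeq2. Of the 17, 4 had an unadjusted p under 0.05 in the higher and 1 in the lower direction, against 5.45% and 7.13% of all genes tested, and the median was 0.09. Cish, a feedback inhibitor induced by growth hormone, was at 17.8 to 24.3 CPM in Nnmt KO and 10.4 to 16.7 CPM in control livers (log2 fold change 0.62, adjusted p = 0.169 in edgeR's test). Socs2, of the same kind, had 0.61 (adjusted p = 0.231) and Stat5a -0.50 (adjusted p = 0.240). The abundant members Igf1 (0.44), Stat3 (-0.02) and the receptor gene Ghr (0.09) did not pass.

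Cyp3a16 is known from the newborn liver, and of 14 tested fetal or newborn genes 1 rose and 0 fell by edgeR at an adjusted p of 0.05, against 0.183% and 0.137% of all genes tested, with a median of 0.58. DESeq2 called 3 higher (Igf2, Dlk1 and Gpc3) and 0 lower, against 1.51% and 2.06% of all genes. The gene called by edgeR was the growth factor gene Igf2, at 8.75, 5.66, 6.15 and 9.47 CPM in Nnmt KO and at 1.06, 0.528, 0.783 and 0.833 CPM in control libraries a to d. Its log2 fold change was 3.22 (SE 0.26, adjusted p = 0.000603), and it stayed called in all 8 fits that left out a library. Dlk1 (3.26, adjusted p = 0.0725 in edgeR's test) and Gpc3 (1.93, adjusted p = 0.0877) also had libraries that did not overlap. Of the 14, 3 had no overlap in the higher and 0 in the lower direction, against 3.34% and 4.81% of all genes tested. H19 was at 13.9 to 19.4 CPM in Nnmt KO livers and at 0.832, 5.33, 2.29 and 15.2 CPM in control livers, with overlap. Ahsg (log2 fold change -0.20) and Afp (0.31), the most abundant besides H19, did not pass.

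**Figure D5:**
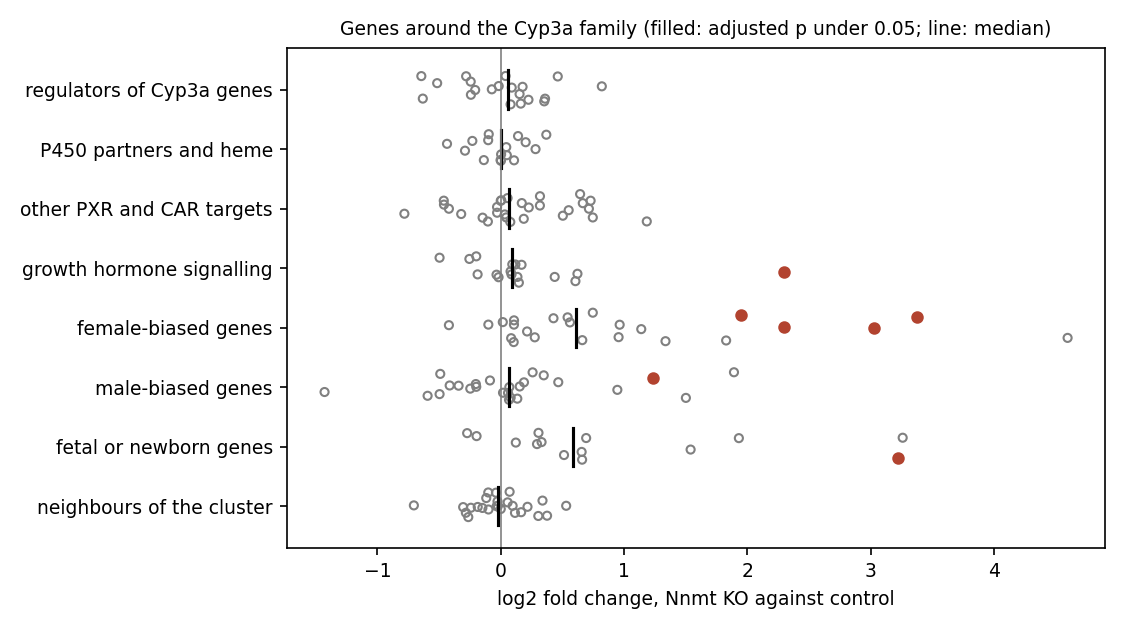
Log2 fold change (Nnmt KO against control) of the tested genes in each list around the Cyp3a family (points; filled where edgeR's adjusted p is under 0.05), with the median as a black line; the vertical position within a list has no meaning, and Cux2 stands in 2 lists. The medians of the female-biased and the fetal lists are at 0.61 and 0.58, and the medians of the other lists shown are between -0.03 and 0.09. Lists of cell markers are not shown, and their medians ran from -0.04 (endothelial) to 0.69 (lymphocyte).

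Markers of other cells were read in the same libraries. None of 9 hepatocyte, 8 cholangiocyte, 7 macrophage, 8 stellate, 8 endothelial, 8 lymphocyte and 4 enterocyte markers tested passed edgeR's test at an adjusted p of 0.05. An unadjusted p under 0.05 was found for 1, 3, 0, 3, 1, 2 and 1 of them, against 12.6% of all genes tested. DESeq2 called 1 cholangiocyte marker (Tspan8) and 2 lymphocyte markers (Cd3g and Cd8a), all higher, against 1.51% of all genes. The median log2 fold changes of these lists, in the same order, were -0.01, 0.43, 0.27, 0.30, -0.04, 0.69 and 0.44, so that of the lymphocyte markers was above those of the female-biased and fetal lists. Fold changes were above 0 for 8 of 8 lymphocyte, 8 of 8 stellate and 7 of 8 cholangiocyte markers. The summed level of lymphocyte markers, of which Cd4 was the most abundant, was 6.07, 6.73, 5.54 and 5.83 CPM in Nnmt KO libraries a to d, against 3.62, 3.64, 3.28 and 4.17 CPM in control libraries a to d, without overlap. Of the 8 lymphocyte markers, 2 were at 0 in at least 1 library. The sum of cholangiocyte markers, led by Spp1, was 109 to 307 CPM in Nnmt KO and 72.9 to 190 CPM in control livers. The sum of stellate markers, led by Dcn, was 827, 494, 457 and 498 CPM in Nnmt KO libraries a to d, against 352 to 524 CPM in control libraries. The sum of macrophage markers, led by Csf1r, was 347 to 470 CPM in Nnmt KO and 235 to 452 CPM in control livers, and that of endothelial markers, led by Stab2, 221 to 261 and 173 to 332 CPM. For enterocyte markers, led by Fabp2, the sum was 58.7 ± 10.3 CPM in Nnmt KO and 54.6 ± 16.1 CPM in control mice (SD, n = 4), and Lct, Sis, Alpi, Cdx1 and Cdx2 of this list were each at 0 in at least 1 library. The part of these cells in the Cyp3a values was not tested. Xist, expressed from the inactive X chromosome of females, was at 0.628 CPM in Nnmt KO and 0.672 CPM in control mice on average, and the Y-linked gene Ddx3y was at 16.0 to 27.0 CPM in Nnmt KO and 12.8 to 19.7 CPM in control livers, so Y-linked RNA was present in all libraries.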

How the data were processed

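Liver RNA of 8 mice was sequenced as paired-end reads, 1 library per mouse. Alignment and quantification by the authors used HISAT2, and the submitters' processing notes also name StringTie and the build mm10 (GRCm38). The deposited table holds raw whole-number counts, not normalized, of 33212 genes, 12414 of them at 0 throughout; the annotation, the use of strand and the treatment of reads that fit several genes are not given in the sources used here. The study's methods and the labels name different library kits, and no sequencing batch is given.

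From the counts, edgeR 4.0.16 (R 4.3.3) gave TMM factors, CPM and the quasi-likelihood test on 15291 genes kept by filterByExpr (minimum count 10), with Benjamini-Hochberg adjustment over these genes; the SE is the one implied by the F statistic. The code was tested on simulated data. DESeq2 1.42.0, other scalings, no filter and leaving out each library were the alternatives. No pair of libraries of a genotype was a copy (chi-square per degree of freedom at least 42.2). Only the spread between these mice enters the p-values. Transcripts, positions and neighbours came from GENCODE M21 (96.53% of genes matched) and promoters from RefSeq, where all 9 Cyp3a genes matched. Likeness was Pearson's r of log2 CPM (prior count 2).

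The text names the members, Cyp3a57, Nnmt, the called genes and the 3 most abundant genes (by CPM) of each list, and the 5 genes most like Cyp3a16 and Cyp3a11; other genes were named after their values were seen. Lists of cell markers whose genes did not pass are given by their sums. The members, the lists and the tests were chosen with earlier results of these data known. Experiments on other diets were not analysed here.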

Additional observations from a re-analysis of the deposited data

Results flagged for a closer look

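In the group of 4 Nnmt KO libraries, 3 of the 52 groups of values examined had a library far from the others, where chance gives 2.6, and each time it was library a. Its TMM factor was 1.21, while the others were at 0.952 to 0.977. Its macrophage markers summed to 470 CPM, against 347 to 361 CPM in the others. Its stellate markers summed to 827 CPM, against 457 to 498 CPM. No Cyp3a gene was flagged in this way, although library a was the lowest of its genotype for all 8 members.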

How the results depend on the processing

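The count of members at least 2-fold higher, 3 with Cyp3a41a and Cyp3a41b taken apart, was the same under all 12 alternatives. So were the 0 calls among neighbours, also within 2 Mb. Over all genes, 49 were called, against 30 with DESeq2's size factors, 22 with library sizes only, 513 with DESeq2's test and 8 without the filter on low counts, and 6 to 149 when each library was left out. Without Nnmt KO library a the count was 149, and it was 6 to 22 without any other library. Of the listed genes 6 were called, against 4 with DESeq2's size factors and 4 with library sizes only. The count was 20 with DESeq2's test, 2 without the filter, and 1 to 14 when each library was left out. Cyp4a12b lost its call with DESeq2's size factors (adjusted p = 0.0512 in edgeR's test), library sizes only (0.0681) and no filter (0.0947). Nnmt passed with DESeq2's test (log2 fold change -1.28, adjusted p = 0.00458) but not in edgeR's fits that left out a library, from -1.52 to -0.94. Cyp3a16 summed with its relatives at 80% protein identity came to 0.43. Cyp3a16, Cyp3a41a and Cyp3a41b relative to Cyp3a11 in each library, added after the data were seen, had log2 ratios of 2.60, 2.08 and 2.05 between the group means. The log2 ratio of the family's summed level ran from 0.20 to 0.57 over its alternatives. No paired analysis was possible because the columns of counts carry no mouse number. Within the family, counts in control livers were lowest for Cyp3a16 and Cyp3a57, at 45 to 53 and 30 to 144, and other genes named had fewer, such as Sult2a1 at 10 to 46. The causes of the other differences were not tested.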
